A study of Mus musculus with 9 samples.

Results

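Interferon-stimulated genes are the genes that cells switch on when interferon binds its receptors. A list of 35 mouse symbols was matched by gene identifier to the transcript rows of the deposited table and summed per gene. Of these, 34 had a row among 18450 genes with a row, and all 34 passed the filter on low counts. Mx1 had no coding transcript in the annotation and is not analysed here. For 26 of the 34 genes every annotated coding transcript had a row. Zbp1 reached the filter's level of 0.601 CPM (counts scaled to a common library size) in only 3 libraries, 1 in each group. Ifi44 reached it in 6 libraries, 3 of stress, 0 of control and 3 of enriched, so it was tested only through the groups in which it was high, and counts are also given over the other 33 genes, a choice made after seeing the data.

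Bulk RNA was sequenced from brains of 9 APP/PS1 mice: 3 had been exposed to stress, 3 were controls from the standard environment, and 3 had lived in an enriched environment. All 9 animals, controls included, carried the APP/PS1 transgenes, which lead to amyloid deposition, so no comparison here is with mice free of them. The promoter driving the transgenes, the age and the sex are not given in the sources used here, and the treatment label reads standard rearing for all 9. Mice were perfused with PBS after behavioural testing, and RNA came from the brain stem together with the anterior part of the brain. Neuron, astrocyte and oligodendrocyte markers were high in every library, as the tissue label calls for, at summed levels of at least 4470, 5520 and 2180 CPM. Libraries held 15851833 to 17213008 estimated reads, and 1 CPM stood for 15.95 to 16.82 reads. Each title carries its own animal code, and the p-values below measure only the spread between these samples. The code starts with C in all 3 stress animals and in control 1, and with D in controls 2 and 3 and all 3 enriched animals. The labels do not explain the letter.

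Type I interferon acts through receptors coupled to the kinases JAK1 and TYK2, which phosphorylate STAT2. STAT2 and IRF9 are parts of a transcription factor complex that recognises the interferon-stimulated response element (ISRE), while the response to interferon gamma uses the gamma-activated site (GAS). The induced genes encode sensors of viral nucleic acid, enzymes and restriction factors that block viral replication, the ubiquitin-like modifier ISG15 and chemokines. In the brain, microglia, astrocytes and endothelial cells are known to mount this response, and it has been described in microglia around amyloid plaques.

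The ISRE was searched as GAAA, NN, GAAA (any bases at N) on both strands of the window from 250 bases before to 50 after each gene start, and 27 of the 34 genes had such a window in the RefSeq table. A match lay in 16 of the 27 (59.3%), against 3.99% of all 27025 genes of the table and 3.63% of the 11668 genes that were also tested. The GAS, searched as TTCNNNGAA, lay in 7 (25.9%), against 9.55% of all genes, and 5 genes held both. Dhx58, Zbp1, Usp18, Rtp4, Ifi27, Ifi27l2a and Parp14 had no window in the table. Of the 32 windows of these genes (some genes have 2, which can overlap), ISRE matches overlapped each other in 4, and an ISRE match overlapped a GAS match in 2. No ISRE match lay in any window of Irf7, Irf9, Ifit2, Oasl2, Uba7, Herc6, Trim25, Ifi44, Ifi35, Xaf1 and Sp100. Of these, Ifit2, Herc6, Ifi44 and Sp100 are among the members with higher values below, as is Parp14, which had no window. The promoters of 5 genes are shown, all chosen from those with an ISRE match. Isg15 and Ifit1 are classical members, Gbp7 and Ddx58 come from the end with higher values, and Bst2 from the end with lower values. Each is printed 5′ to 3′ on the strand of its gene, from RefSeq GRCm38.p6, with ISRE matches in capitals.
Isg15, chr4:156200769-156201068, minus strand: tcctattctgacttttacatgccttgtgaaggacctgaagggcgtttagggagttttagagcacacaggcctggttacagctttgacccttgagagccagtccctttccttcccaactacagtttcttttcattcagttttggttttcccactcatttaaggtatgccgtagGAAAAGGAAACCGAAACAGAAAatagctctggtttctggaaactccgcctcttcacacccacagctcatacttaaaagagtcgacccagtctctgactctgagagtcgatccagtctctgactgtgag
Ifit1, chr19:34640639-34640938, plus strand: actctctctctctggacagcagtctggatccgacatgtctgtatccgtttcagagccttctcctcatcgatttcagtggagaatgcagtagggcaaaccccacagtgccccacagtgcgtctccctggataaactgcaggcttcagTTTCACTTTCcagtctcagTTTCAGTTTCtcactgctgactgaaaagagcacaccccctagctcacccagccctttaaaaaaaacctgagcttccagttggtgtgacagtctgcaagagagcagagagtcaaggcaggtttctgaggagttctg
Gbp7, chr3:142530086-142530385, plus strand: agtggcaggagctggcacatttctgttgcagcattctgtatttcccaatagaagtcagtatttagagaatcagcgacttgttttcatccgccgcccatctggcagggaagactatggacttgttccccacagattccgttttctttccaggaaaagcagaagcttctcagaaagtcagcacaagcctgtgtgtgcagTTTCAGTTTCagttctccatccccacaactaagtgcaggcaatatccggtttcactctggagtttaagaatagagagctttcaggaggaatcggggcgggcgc
Ddx58, chr4:40239776-40240075, minus strand: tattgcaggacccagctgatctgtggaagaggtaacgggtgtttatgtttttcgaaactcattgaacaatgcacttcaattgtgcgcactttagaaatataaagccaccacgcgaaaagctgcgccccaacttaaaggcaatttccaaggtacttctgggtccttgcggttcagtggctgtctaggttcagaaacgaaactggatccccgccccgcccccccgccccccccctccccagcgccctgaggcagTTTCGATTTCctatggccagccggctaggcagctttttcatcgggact
Bst2, chr8:71537423-71537722, minus strand: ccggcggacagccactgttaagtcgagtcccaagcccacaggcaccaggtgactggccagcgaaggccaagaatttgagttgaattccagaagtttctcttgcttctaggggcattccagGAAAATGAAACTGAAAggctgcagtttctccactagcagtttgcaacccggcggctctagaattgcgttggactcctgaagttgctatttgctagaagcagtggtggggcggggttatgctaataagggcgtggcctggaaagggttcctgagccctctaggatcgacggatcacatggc
In Isg15 the capitals hold 3 overlapping matches, whose first bases lie 78, 72 and 66 bases before the start. Ifit1 held 2 separate matches at 104 and 85 bases before the start and Gbp7 held 1 at 53 bases, each read on the opposite strand. Bst2 held 2 overlapping matches at 130 and 124 bases before the start, and the match of Ddx58 lay just after its start. A match describes letters and does not show binding. The median log2 fold change between stress and control was 0.25 over the 16 genes with an ISRE match and 0.24 over the 11 without. For enriched against control the medians were 0.26 and 0.11, and neither pair was tested. The 11 include Ifi44, at 1.31 in stress and 1.13 in enriched, which passed the filter only through those groups. With Ifi44 set aside, the middle values of the others were Oasl2 at 0.04 and Irf7 at 0.24 in stress. In enriched they were Trim25 at 0.07 and Oasl2 at 0.11.

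Per transcript length, the level of these genes spanned a wide range in every library, and their summed deposited TPM was between 356 and 470. Ifitm3, a membrane protein that blocks entry of enveloped viruses, was highest at 131 ± 22.3 TPM (SD, n = 9). Ifi27, a small interferon-inducible membrane protein, followed at 72.5 ± 7.5 TPM (SD, n = 9). Ifi27l2a at 29.9 ± 10.4 TPM and Bst2 (tetherin, which holds budding virions at the cell surface) at 26.3 ± 5.28 TPM came next (SD, n = 9), and these neighbours did not differ beyond their spread. At the low end stood Ifi44 at 0.583 ± 0.264 TPM and Zbp1, a sensor of Z-form nucleic acid, at 0.536 ± 0.245 TPM (SD, n = 9). Isg15 itself had 9.08 ± 3 TPM, close to Rtp4 with 9.18 ± 2.04 TPM (SD, n = 9).

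**Figure D1:**
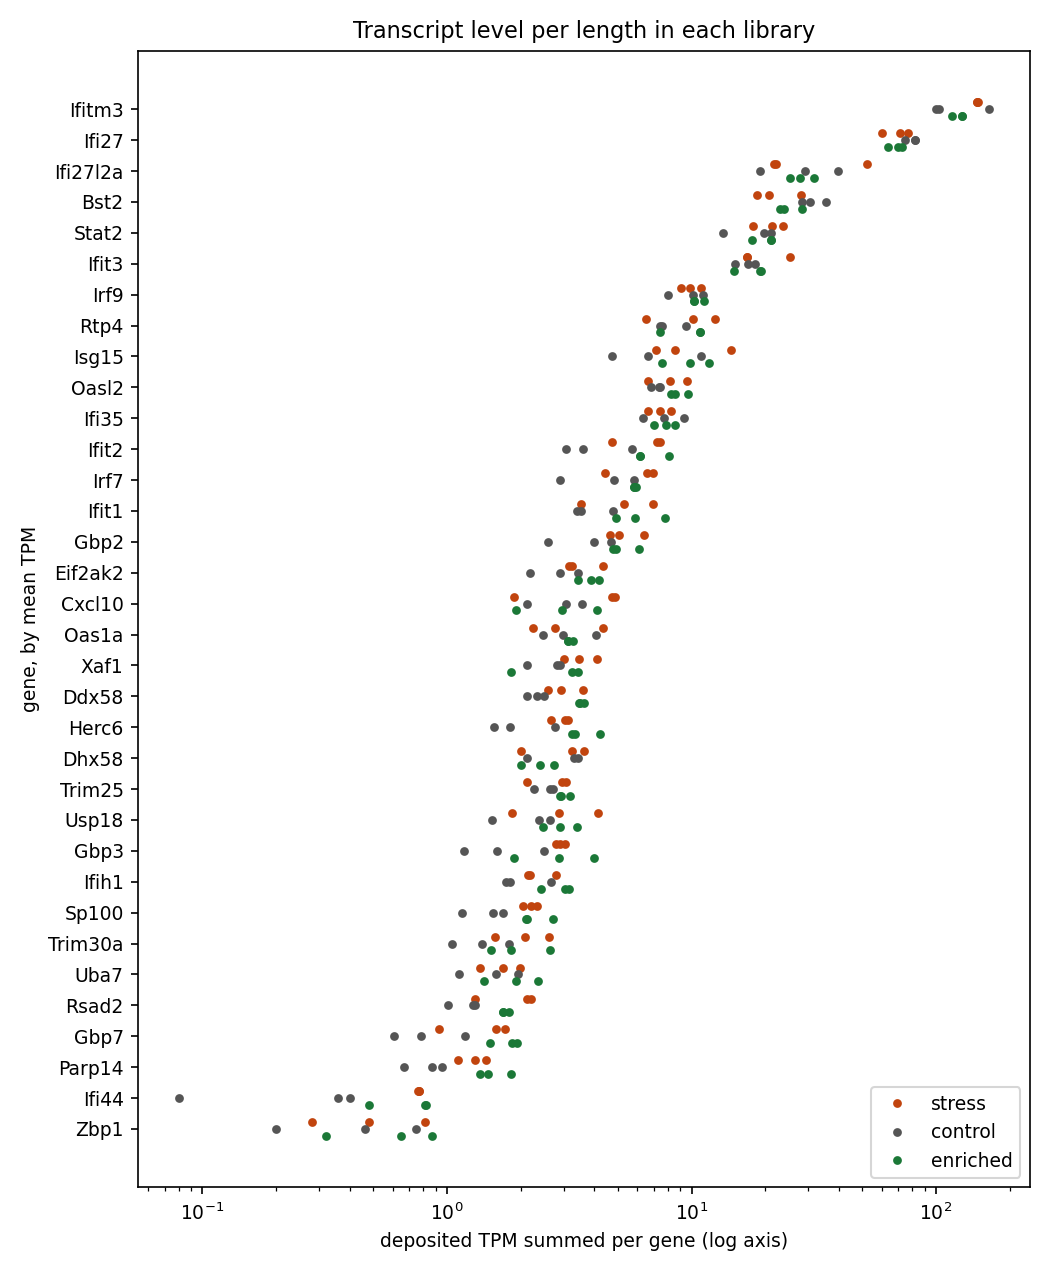
Deposited TPM summed per gene (log axis) for each of the 34 genes, ordered by mean TPM, with 1 point per library coloured by group. Ifitm3 lies highest at a mean of 131 TPM and Zbp1 lowest at 0.536 TPM, and for most genes the colours overlap.

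The mean log2 CPM over the 34 genes was 2.44, 2.25 and 2.64 in stress replicates 1 to 3, 2.5, 2.06 and 2.19 in control, and 2.44, 2.42 and 2.43 in enriched. The group means were 2.44 ± 0.19 in stress, 2.25 ± 0.23 in control and 2.43 ± 0.01 in enriched (SD, n = 3). Over the 33 genes without Ifi44, the library means were 2.5, 2.32 and 2.7 in stress and 2.59, 2.19 and 2.27 in control. In enriched they were 2.53, 2.48 and 2.49. Control 1 lay above both other control libraries and above every enriched library, so the groups overlapped. Fewer cells that express these genes and less RNA per cell cannot be told apart in bulk tissue. Among animals with the letter C, control 1 at 2.5 lay within the stress values. Among animals with the letter D, the enriched values of 2.42 to 2.44 lay above controls 2 and 3. Stress 3 held the highest value of 9 genes (Irf7, Stat2, Ifit3, Rsad2, Isg15, Usp18, Cxcl10, Ifi27l2a and Ifi44), and control 1 the highest of 8 (Dhx58, Oas1a, Bst2, Ifitm3, Uba7, Rtp4, Ifi27 and Ifi35). Control 2 held the lowest value of 11 genes and the highest of 0.

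**Figure D2:**
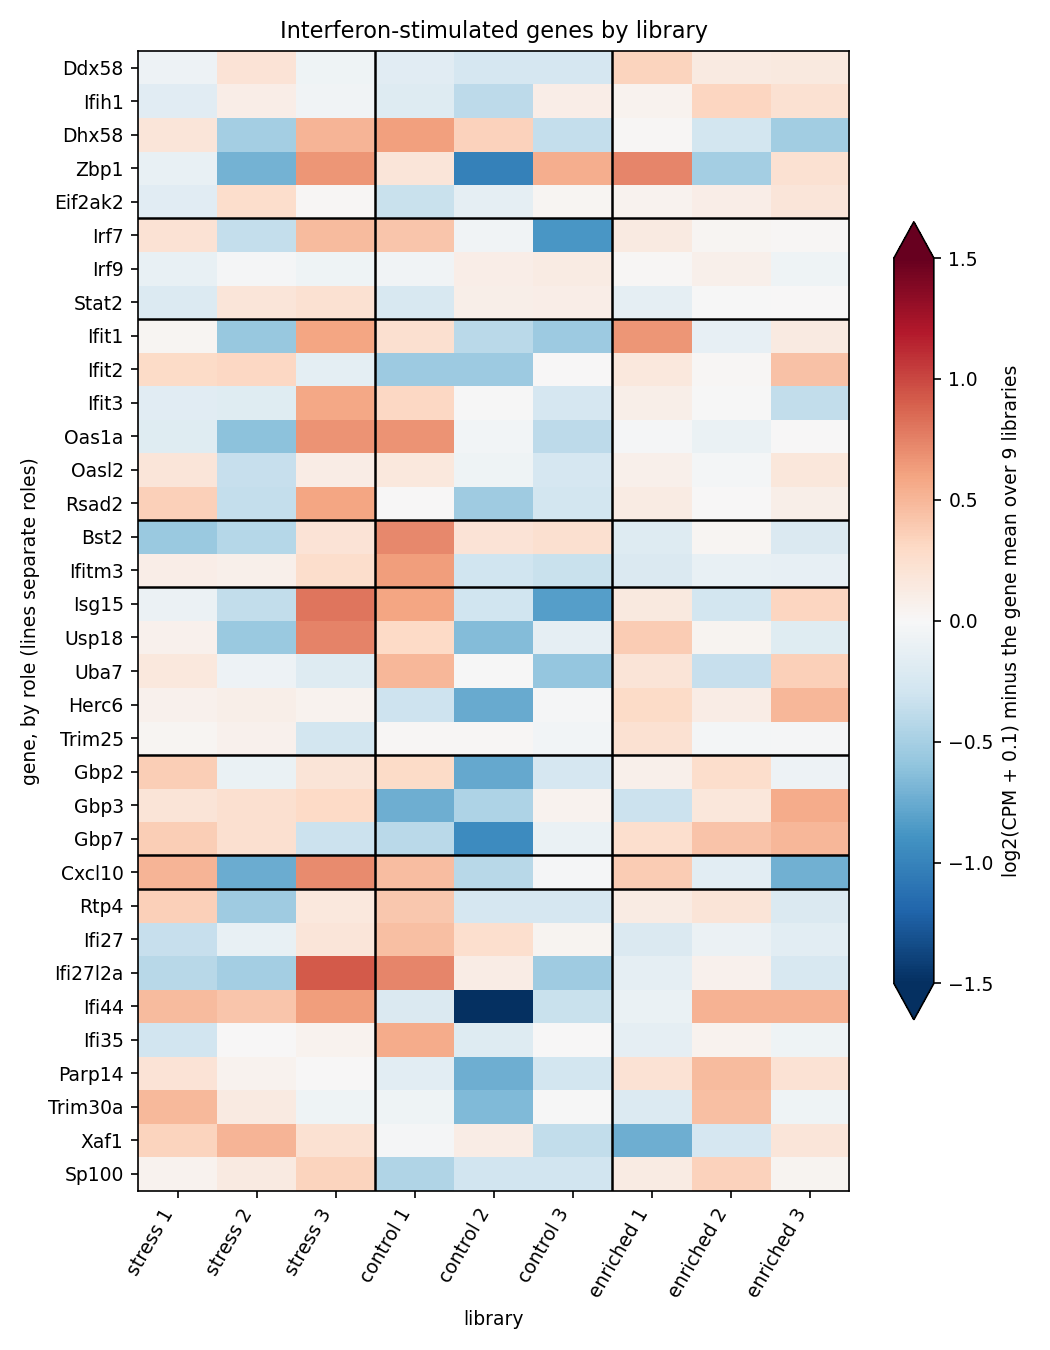
Colour shows log2(CPM + 0.1) minus the gene's mean over the 9 libraries (columns) for the 34 genes (rows, lines separating roles). Control 2 is pale to blue in most rows, and stress 3 and control 1 share red rows among the short and classical genes such as Ifi27l2a and Isg15.

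In stress against control, no gene of the list passed the test, and most single values lay on the higher side. edgeR (quasi-likelihood, Benjamini-Hochberg over 14694 genes) called 0 of the 34, where 0.0% of all genes were called, and DESeq2 also called 0 of the 34, against 0.0476% of all genes. The smallest adjusted p of a member was 0.546 (edgeR). At an unadjusted p under 0.05, 4 members were higher (Ifit2, Ifi44, Parp14 and Sp100; 11.8% of 34, or 3 and 9.09% of 33 without Ifi44, against 4.2% of all genes) and 1 was lower (Bst2; 2.94%, against 3.78%). A log2 fold change above 0 was found for 25 of the 34 (73.5%; 24 of 33 without Ifi44), against 52.3% of all genes, and the median was 0.21 (0.19 without Ifi44) against 0.02. In 7 members all stress values in CPM lay above all control values (20.6%, or 6 and 18.2% without Ifi44, against 5.19% of all genes), namely Ddx58, Herc6, Gbp3, Ifi44, Parp14, Xaf1 and Sp100. The reverse held for 1 member, Bst2 (2.94%, against 4.65%). The median of the members was 0.02 without stress 3, 0.11 without control 2 and 0.37 without control 1. With the letter of the code as a covariate it was -0.12, with 14 of the 34 above 0 (41.2%, or 13 of 33 without Ifi44, against 52.1% of all genes). Without stress 3, and likewise without control 3, 19 of the 34 lay above 0 (55.9%, or 18 of 33 without Ifi44). This share was near the background of 52.2% and 52.3% of all genes. The fit with the letter in effect sets stress against control 1 alone.

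In enriched against control, again no gene of the list passed. edgeR called 0 of the 34 (0.0% of all genes), with a smallest adjusted p of 0.236, and DESeq2 called 0 of the 34 (against 0.272% of all genes). At an unadjusted p under 0.05, 7 members were higher (Ddx58, Ifit2, Herc6, Gbp7, Ifi44, Parp14 and Sp100; 20.6%, or 6 and 18.2% without Ifi44, against 9.93% of all genes) and 2 were lower (Bst2 and Ifi27; 5.88%, against 10.4%). Values in CPM did not overlap for 9 higher members (26.5%, or 8 and 24.2% without Ifi44, against 12.5%) and for 2 lower members (5.88%, against 13.6%). A log2 fold change above 0 was found for 22 of the 34 (64.7%, or 21 of 33 without Ifi44, against 51.7% of all genes), with a median of 0.14 against 0.02. The median was 0.32 without control 1, 0.04 without control 3, 0.05 without control 2 and 0.07 without enriched 1, and 0.32 with the letter as a covariate, which in effect uses controls 2 and 3 alone. Both comparisons share the 3 control libraries, so their values are given side by side and are not independent. Without control 3, 19 of the 34 lay above 0 (55.9%, or 18 of 33 without Ifi44, against 51.4%). In that fit edgeR called 1608 genes (10.9% of those tested) and 3 members (8.82% of 34). The 3 were Ifit2 at a log2 fold change of 0.77 (adjusted p = 0.0454), Herc6 at 0.83 (0.043) and Gbp7 at 1.07 (0.0481).

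In stress against enriched, edgeR called 0 of the 34 (0.0% of all genes), with a smallest adjusted p of 0.999, and DESeq2 called 0 (0.0% of all genes). At an unadjusted p under 0.05, 1 member was higher (Xaf1; 2.94%, against 1.25% of all genes) and 0 were lower (0.0%, against 1.4%). Of the 34, 18 had a log2 fold change above 0 (52.9%, or 17 of 33 without Ifi44, against 51.9%), with a median of 0.04 against 0.01. Values in CPM did not overlap for 2 higher members, Ifitm3 and Xaf1 (5.88%, against 5.06%), and 2 lower ones, Herc6 and Parp14 (5.88%, against 5.42%). These shares lie near the background. The median was -0.08 without stress 3, and -0.32 with the letter as a covariate.

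**Figure D3:**
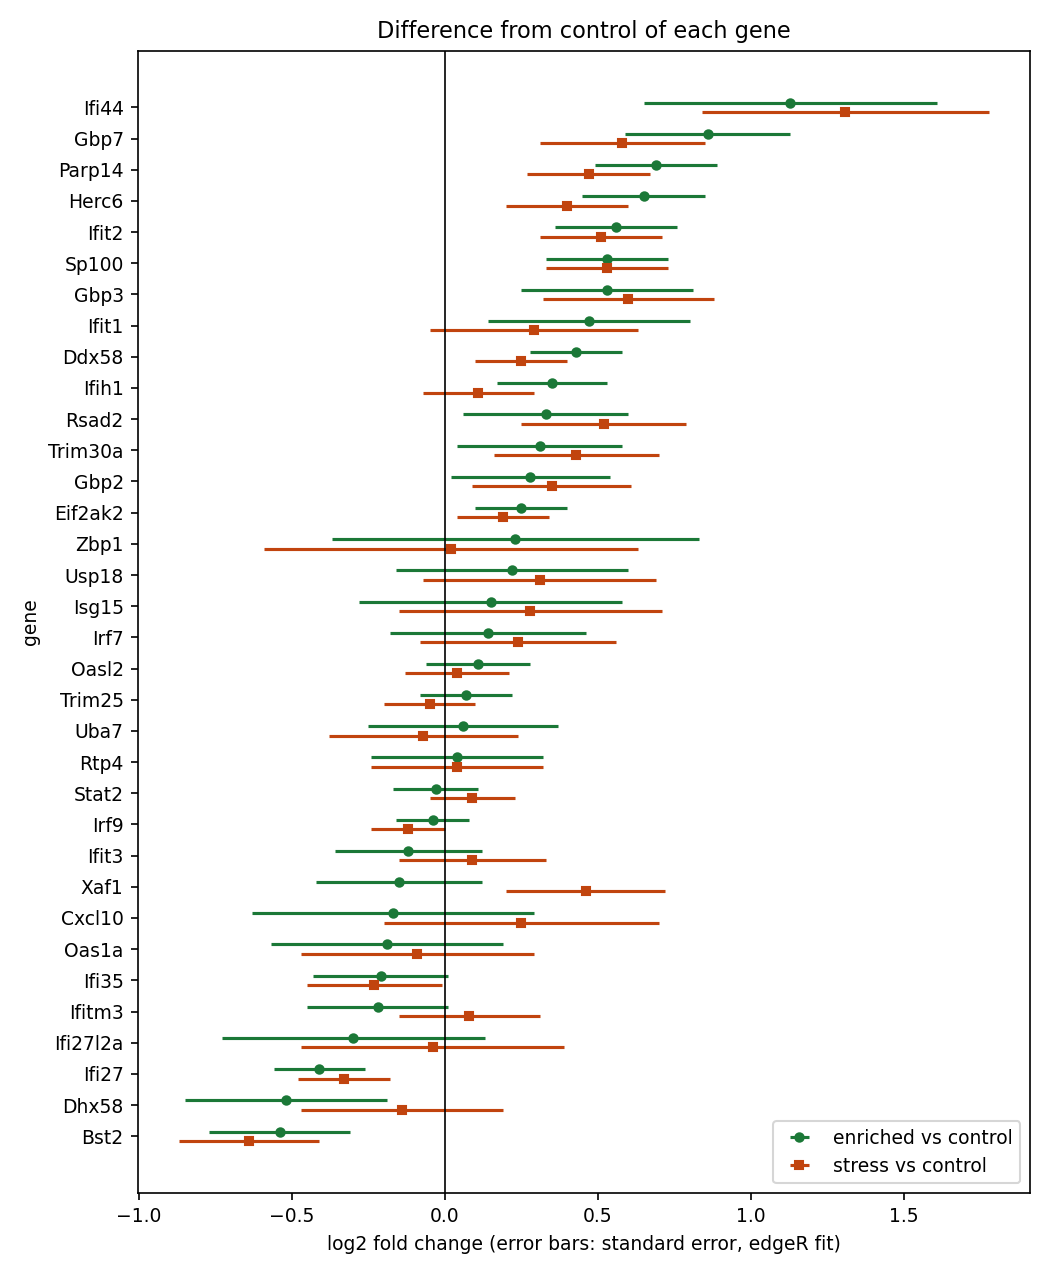
Log2 fold change of each of the 34 genes (rows, ordered by enriched against control) with its standard error from the edgeR fit, circles for enriched against control and squares for stress against control. Ifi44 lies farthest right at 1.13 and 1.31 and Bst2 farthest left at -0.54 and -0.64, and no gene passed the adjusted test.

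Among the sensors of viral nucleic acid, 4 of 5 had a log2 fold change above 0 in both comparisons with control, and 0 passed. Ddx58 (RIG-I, which binds RNA with a 5′ triphosphate; gene 230073, chromosome 4, 40203777 to 40239825) was at 7.1, 8.62 and 7.15 CPM in stress, 6.63, 6.28 and 6.29 in control, and 9.46, 8.2 and 8.28 in enriched. Both groups lay wholly above the controls. The log2 fold change was 0.25 ± 0.15 in stress and 0.43 ± 0.15 in enriched (SE; edgeR unadjusted p = 0.118 and 0.0143, adjusted p = 0.546 and 0.236). Ifih1 (MDA5, which binds long double-stranded RNA) was at 5.65, 6.83 and 6.11 CPM in stress, 5.55, 4.83 and 6.84 in control, and 6.59, 7.97 and 7.46 in enriched, and the groups overlapped. Dhx58 (LGP2, a regulator of RIG-I and MDA5) was the sensor with values on the lower side, at 3.64, 2.22 and 4.58 CPM in stress, 4.95, 4.11 and 2.48 in control, and 3.23, 2.62 and 2.2 in enriched. Its difference between enriched and control was -0.52 ± 0.33 (SE; edgeR adjusted p = 0.346). Eif2ak2 (PKR, a kinase that halts translation) lay above control in every enriched library, at 12.3 ± 0.534 against 10.3 ± 1.32 CPM (SD, n = 3). Enriched 1 at 11.8 CPM lay just above control 3 at 11.6 CPM. Zbp1 had at most 14 reads in any library.

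The 3 signalling factors of the list overlapped between groups. Irf7, the factor that amplifies interferon alpha production, was at 5.28, 3.51 and 6.35 CPM in stress, 6.09, 4.35 and 2.42 in control, and 4.97, 4.64 and 4.58 in enriched. The control values spanned a wider range than the enriched ones and enclosed them. Irf9 was at 11, 11.8 and 11.4 CPM in stress, 11.5, 12.8 and 13 in control and 12.1, 12.6 and 11.4 in enriched. Its log2 fold change in stress was -0.12 ± 0.12 (SE; edgeR adjusted p = 0.645) and turned to 0.04 on the TPM scale. Stat2 had 47.6 ± 7.39, 44.8 ± 5.76 and 43.8 ± 2.37 CPM in stress, control and enriched (SD, n = 3). The annotated ranges of Apof and Stat2 overlap. Their exons were not compared, so whether the pair shares reads is not known.

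The effectors of the IFIT, OAS and viperin families differed among themselves. Ifit1 (which binds viral RNA lacking cap methylation; chromosome 19, 34640889 to 34650009) was at 6.56, 4.31 and 9.71 CPM in stress, 7.6, 4.83 and 4.36 in control, and 10.2, 5.89 and 7.09 in enriched. The groups overlapped, and the spread within stress was more than the distance between the means. Its paralog Ifit2 (gene 15958, chromosome 19, 34550550 to 34576534) was at 13.5, 13.7 and 9.95 CPM in stress, 7.54, 7.55 and 11.1 in control, and 12.3, 11.2 and 15 in enriched. Each enriched library exceeded each control, although enriched 2 at 11.2 and control 3 at 11.1 CPM almost touched, while stress 3 lay between control values. The log2 fold change of Ifit2 was 0.51 ± 0.2 in stress and 0.56 ± 0.2 in enriched (SE; edgeR unadjusted p = 0.0321 and 0.0209, adjusted p = 0.546 and 0.236). Ifit3 was at 15, 14.8 and 25.3 CPM in stress, 20.9, 16.8 and 14.1 in control, and 17.9, 16.7 and 13 in enriched, so stress 3 and control 1 were its highest libraries. Oas1a, Oasl2 and Rsad2 (viperin) had log2 fold changes between -0.19 and 0.52 in these comparisons. Rsad2 lay above control in every enriched library, although enriched 2 at 3.03 and control 1 at 3.02 CPM almost touched. Its log2 fold change in enriched was 0.33 ± 0.27 (SE; edgeR adjusted p = 0.447). Counts of the Ifit, Oas1 and Gbp families are uncertain, because RSEM divides reads among near-identical transcripts.

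The membrane restriction factors were on the lower side in enriched, 0 of 2 above 0. Bst2 (gene 69550, chromosome 8, 71534255 to 71537472) was at 5.22, 5.72 and 8.86 CPM in stress, 12.8, 8.88 and 9.08 in control, and 6.71, 7.85 and 6.59 in enriched. In CPM all stress and enriched values were below all control values, although stress 3 and control 2 almost touched. On the TPM scale enriched 2 at 28.4 lay just above control 2 at 28.3. The log2 fold change was -0.64 ± 0.23 in stress and -0.54 ± 0.23 in enriched (SE; edgeR unadjusted p = 0.021 and 0.0414, adjusted p = 0.546 and 0.238). Ifitm3 was at 29.1, 28.7 and 32.7 CPM in stress, 42, 22.1 and 21.5 in control, and 23.4, 25.1 and 25 in enriched. Control 1 alone exceeded every other library, and the stress values lay above all enriched ones. Stress exceeded enriched by 0.3 ± 0.23 on the log2 scale (SE; edgeR adjusted p = 0.999), and with the letter as a covariate the difference was -0.64.

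In the ISG15 system, 3 of 5 members lay above 0 in stress and 5 of 5 in enriched. Isg15, the modifier itself (gene 100038882, chromosome 4, 156199424 to 156200818), was at 2.19, 1.78 and 4.15 CPM in stress, 3.56, 1.87 and 1.27 in control, and 2.58, 1.9 and 2.95 in enriched. Stress 3 and control 1 were highest and the groups overlapped. Herc6, the mouse ligase that attaches ISG15 (gene 67138, chromosome 6, 57580992 to 57665136), was at 7.95, 8.06 and 7.88 CPM in stress, 6.09, 4.47 and 7.5 in control, and 9.28, 8.2 and 10.8 in enriched. In CPM, every enriched value exceeded every stress value, and every stress value exceeded every control value. On the TPM scale stress 3 at 2.67 lay below control 3 at 2.77. The log2 fold change of Herc6 was 0.4 ± 0.2 in stress and 0.65 ± 0.2 in enriched against control (SE; edgeR unadjusted p = 0.0704 and 0.00879, adjusted p = 0.546 and 0.236). Between stress and enriched it was -0.24 ± 0.2 (SE; edgeR adjusted p = 0.999). Usp18, which removes ISG15 and restrains the receptor, Uba7, which activates it, and Trim25, a ligase, had log2 fold changes between -0.07 and 0.31 against control.

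The guanylate-binding proteins, GTPases that attack pathogen membranes, were all above 0 against control in both comparisons, with medians of 0.58 in stress and 0.53 in enriched. Gbp2 was at 7.29, 5.23 and 6.47 CPM in stress, 6.88, 3.26 and 4.72 in control, and 5.93, 6.78 and 5.33 in enriched. Gbp7 (gene 229900, chromosome 3, 142530336 to 142550151) was at 4.8, 4.37 and 2.93 CPM in stress, 2.77, 1.87 and 3.45 in control, and 4.43, 4.99 and 5.27 in enriched. In Gbp7 the enriched libraries were all above control, whereas stress 3 lay between control values. Its log2 fold change in enriched was 0.86 ± 0.27 (SE; edgeR unadjusted p = 0.00944, adjusted p = 0.236) and in stress 0.58 ± 0.27 (adjusted p = 0.546). Gbp3 had 3.89 ± 0.134 CPM in stress against 2.56 ± 0.75 in control (SD, n = 3), and no stress value was below any control value.

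Cxcl10, a chemokine that attracts T cells bearing CXCR3, was at 2.06, 0.8 and 2.38 CPM in stress, 1.99, 1.03 and 1.39 in control, and 1.86, 1.25 and 0.815 in enriched. The groups overlapped throughout, and the log2 fold change was 0.25 ± 0.45 in stress and -0.17 ± 0.46 in enriched (SE; edgeR adjusted p = 0.807 and 0.832). The annotated ranges of Art3 and Cxcl10 overlap, and whether they share reads was not checked at the level of exons.

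Of the remaining 9 members, Parp14, a mono-ADP-ribosyltransferase (gene 547253, chromosome 16, 35831892 to 35871518), was at 5.28, 4.74 and 4.58 CPM in stress, 4.1, 2.72 and 3.75 in control, and 5.33, 6.42 and 5.33 in enriched. Its values lay above control in both groups. Enriched lay above stress, although enriched 1 at 5.33 and stress 1 at 5.28 CPM almost touched. On the TPM scale stress 1 at 1.45 exceeded enriched 1 at 1.36. Against control the log2 fold change was 0.47 ± 0.2 in stress and 0.69 ± 0.2 in enriched (SE; edgeR unadjusted p = 0.0417 and 0.00595, adjusted p = 0.546 and 0.236). Between stress and enriched it was -0.23 ± 0.19 (SE; edgeR adjusted p = 0.999). Sp100, a component of nuclear bodies, was at 2.85, 3.02 and 3.48 CPM in stress, 1.99, 2.23 and 2.24 in control, and 3, 3.51 and 2.82 in enriched. Both groups lay wholly above control, by 0.53 ± 0.2 on the log2 scale in each (SE; edgeR adjusted p = 0.546 and 0.236). Ifi44 had 17, 16 and 19 reads in stress, 10, 2 and 9 in control and 11, 18 and 17 in enriched. Its log2 fold change was 1.31 ± 0.47 in stress and 1.13 ± 0.48 in enriched (SE; edgeR adjusted p = 0.546 and 0.238), a description only, given how it passed the filter. Xaf1, a pro-apoptotic protein, was at 3.64, 4.12 and 3.36 CPM in stress, 2.83, 3.08 and 2.18 in control, and 1.68, 2.38 and 3.26 in enriched. Stress lay above enriched by 0.6 ± 0.27 on the log2 scale (SE; edgeR unadjusted p = 0.0474, adjusted p = 0.999). Stress 3 at 3.36 and enriched 3 at 3.26 CPM almost touched. On the TPM scale stress 3 at 3.01 lay below enriched 2 at 3.43, so these groups overlapped.

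Ifi27 (gene 52668, chromosome 12, 103434189 to 103440245) was at 23.4, 27.7 and 33.8 CPM in stress, 40.8, 35.6 and 30.6 in control, and 25.7, 28 and 26.8 in enriched. The enriched values lay below all control values, and stress 3 overlapped control. The log2 fold change was -0.33 ± 0.15 in stress and -0.41 ± 0.15 in enriched (SE; edgeR unadjusted p = 0.0539 and 0.023, adjusted p = 0.546 and 0.236). Ifi27l2a, its neighbour, was at 2.31, 2.15 and 5.99 CPM in stress, 5.25, 3.38 and 2.12 in control and 2.82, 3.27 and 2.63 in enriched. The annotated ranges of Ifi27 and Ifi27l2a overlap, exons were not compared, and their reads may be uncertain. Rtp4, a chaperone of receptors, was at 6.13, 3.26 and 5.31 CPM in stress, 6.33, 3.99 and 3.99 in control, and 5.21, 5.47 and 4.08 in enriched, and Masp1 overlaps it.

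**Figure D4:**
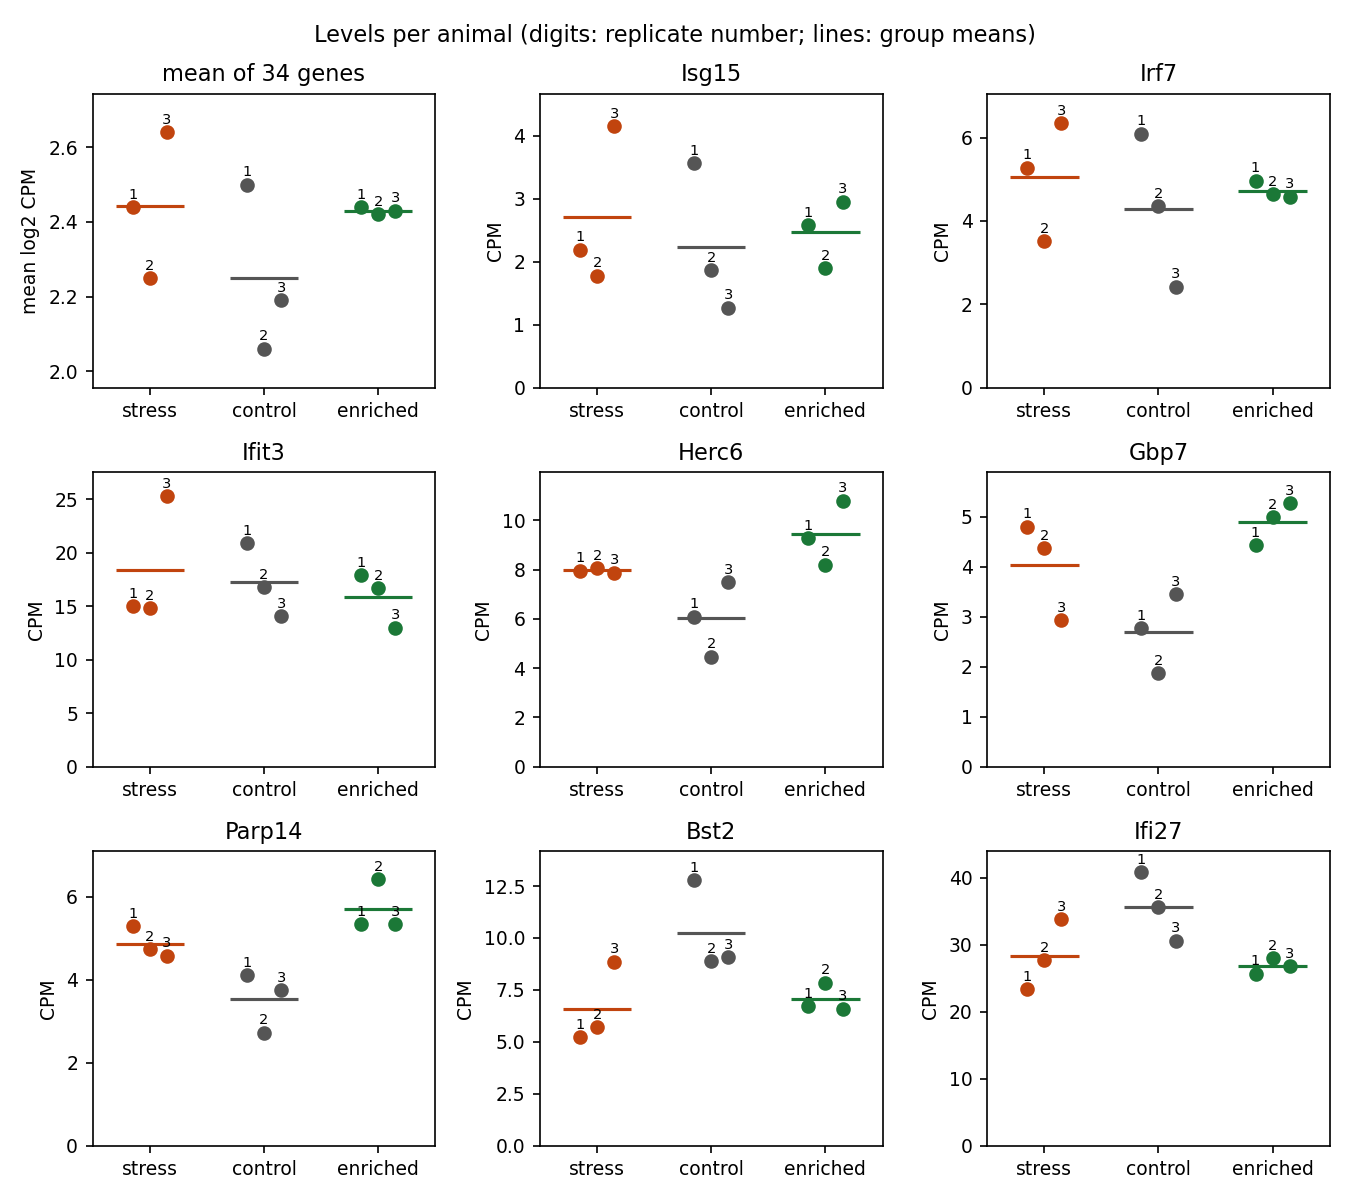
CPM of 8 genes and the mean log2 CPM of the 34 genes in each animal, with the replicate number beside each point and a line at the group mean. Herc6 is lowest in control, higher in stress and highest in enriched with no overlap in CPM, although stress and control overlap in TPM. Isg15, Irf7 and Ifit3 have their highest values in stress 3 and control 1.

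Median log2 fold changes against control were below 0 for short members and above 0 for long ones, as for all genes of those lengths. The short members were mixed, with 2 of 5 above 0 in stress and 1 of 5 in enriched. The 5 members whose longest coding transcript is under 1000 bases (Bst2, Ifitm3, Isg15, Ifi27 and Ifi27l2a) had a median log2 fold change of -0.04 in stress and -0.3 in enriched, beside -0.27 and -0.4 for all 644 genes of that length. The 20 members of 2500 bases or more had medians of 0.38 and 0.34, beside 0.08 and 0.12 for all 9403 such genes. Each library's log2 CPM, taken as the deviation from a gene's mean over the 9 libraries, was regressed on length over all genes. Its slope per 10-fold length was -0.814, -0.286 and 0.089 in control replicates 1 to 3, 0.161, 0.246 and -0.279 in stress, and 0.121, 0.349 and 0.412 in enriched. The highest value of each of the 5 short members lay in control 1 or stress 3, whose slopes were negative, as was that of control 2. With the length trend removed the short members had medians of 0.28 and 0.22 and the long ones, Ifi44 among them, 0.32 and 0.31. Of the 34, 27 then lay above 0 in stress (79.4%, or 26 of 33 without Ifi44, against 51.0% of all genes). In enriched 26 did (76.5%, or 25 of 33, against 50.4%). In that fit Bst2 had -0.39 ± 0.17 and -0.15 ± 0.17, and Ifi27 had -0.11 ± 0.11 and -0.07 ± 0.11 (SE). At an unadjusted p under 0.05 in it (edgeR), Ifit2, Ifitm3, Ifi44 and Sp100 were higher in stress (11.8%, or 9.09% without Ifi44) and Bst2 lower (2.94%). In enriched, Ddx58, Ifit2, Herc6, Gbp7, Ifi44 and Sp100 were higher (17.6%, or 15.2%) and 0 lower. Parp14 was under 0.05 in neither comparison. Of all 14694 genes, 1212 and 1980 were under 0.05, both directions together. A share of all genes by direction was not taken in this fit. The member shares at this threshold therefore have no like background here and are a description only. Without control 1, 29 of the 34 lay above 0 in stress (85.3%, or 28 of 33 without Ifi44, against 52.2% of all genes). In enriched 28 did (82.4%, or 27 of 33, against 50.2%). In both comparisons of that fit 0 members were lower at an unadjusted p under 0.05 in edgeR (against 1.14% of all genes in stress and 3.44% in enriched). Control 1 held the highest value of 8 members, Bst2 and Ifi27 among them. These shares thus depend on which library was left out and do not test length. Without control 3, 19 of the 34 lay above 0 in both comparisons (55.9%, against 52.3% and 51.4% of all genes).

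**Figure D5:**
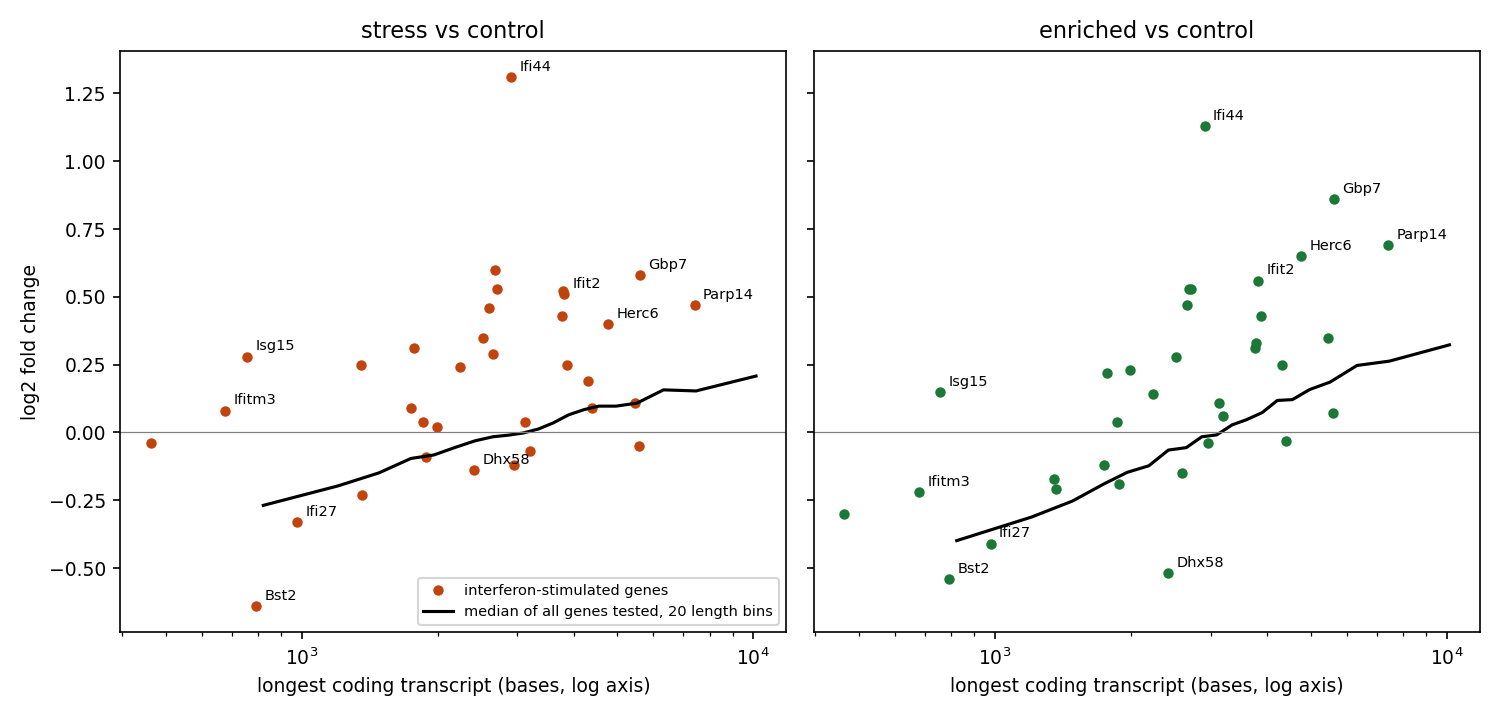
Log2 fold change against control (stress left, enriched right) for each of the 34 genes against the length of its longest coding transcript (log axis, bases), with the median of all genes tested in 20 length bins as a line. The line rises with length in both panels, and most long members lie above it.

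Of 21 interferon genes, 4 had a row and 0 could be tested: Ifna7 and Ifna16 each had 1 read in 1 library, Ifng had 2 reads in stress 3, and Ifnz had at most 5 reads in any library. All 18 receptor and signalling genes were tested and 0 passed in any comparison. In enriched against control, 4 of these were higher and 2 lower at an unadjusted p under 0.05, where 9.93% of all genes were higher and 10.4% lower. Jak2, a kinase of the interferon gamma receptor, had 0.39 ± 0.19 in stress and 0.51 ± 0.19 in enriched (SE; edgeR adjusted p = 0.546 and 0.236). Ifngr2, a chain of that receptor, had -0.15 ± 0.12 and -0.31 ± 0.12 in the same comparisons. In stress against control Pias1, a SUMO ligase, had 0.29 ± 0.13 (edgeR adjusted p = 0.546). Between stress and enriched, Ifnlr1 at 0.61 ± 0.4 and Il10rb at 0.21 ± 0.16, both chains of the lambda receptor, lay above 0, and Tyk2 at -0.24 ± 0.11 lay below (edgeR adjusted p = 0.999 each). Socs1, the feedback inhibitor, was at 1.76, 1.48 and 1.53 CPM in stress, 2.65, 2.84 and 2.18 in control, and 1.98, 1.07 and 1.57 in enriched, below control in every library. Its log2 fold change was -0.68 ± 0.27 in stress and -0.73 ± 0.27 in enriched (SE; edgeR adjusted p = 0.546 and 0.236).

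All 18 genes of nucleic acid sensing were tested and 0 passed. In enriched, Tlr3, an endosomal receptor for double-stranded RNA, had 18.3 ± 1.45 against 11.7 ± 3.02 CPM in control (SD, n = 3), a log2 fold change of 0.64 ± 0.21 (SE; edgeR adjusted p = 0.236). In stress, Cgas, the cytosolic DNA sensor, had 0.69 ± 0.29 (edgeR adjusted p = 0.546), and Irf3, which induces interferon beta, had -0.33 ± 0.16 there and -0.38 ± 0.16 in enriched. The adaptor Myd88 had -0.3 ± 0.17 and -0.35 ± 0.17 in the same comparisons. Aim2, an inflammasome sensor of DNA, exceeded control by 0.47 ± 0.23 and enriched by 0.44 ± 0.23 in stress, and Irf5 had 0.34 ± 0.17 in enriched against control. Between stress and enriched Trex1, a DNA exonuclease, had 0.13 ± 0.14, Tlr3 -0.23 ± 0.2 and Irf5 -0.19 ± 0.17. Of 75 further interferon-induced genes, 70 had a row and 60 were tested, and 0 passed. In stress 45 of the 60 lay above 0 (52.3% of all genes did), and 8 were higher and 0 lower at an unadjusted p under 0.05, beside 4.2% and 3.78% of all genes. In enriched 44 lay above 0 (51.7% of all genes did), and 10 were higher and 1 lower, beside 9.93% and 10.4% of all genes. Samd9l, an antiviral factor, was at 6.01, 7.32 and 5.62 CPM in stress, 1.99, 2.54 and 2 in control, and 6.95, 5.89 and 6.21 in enriched. Its adjusted p of 0.187 and 0.18 (edgeR) was the smallest of all genes in both comparisons. Oas2 had a log2 fold change of 1.19 ± 0.35 in stress and Epsti1 0.97 ± 0.27 in enriched (SE; edgeR adjusted p = 0.546 and 0.236), while Oasl1 exceeded enriched in stress by 1.34 ± 0.5 (adjusted p = 0.999). On the lower side, Daxx had -0.2 ± 0.1 in stress and -0.24 ± 0.1 in enriched, Parp10 had -2.55 ± 1.76 in stress and Oas1c had -0.7 ± 0.37 in enriched (SE; edgeR adjusted p = 0.546, 0.236, 0.558 and 0.279). Between stress and enriched, Isg20 had 0.59 ± 0.33, Znfx1 -0.24 ± 0.08 and Irgm2 -0.48 ± 0.2 (SE; edgeR adjusted p = 0.999 each).

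Summed markers of other cells were compared beside these genes. Microglial markers (12 of 12 tested) ranged from 685 to 781 CPM in stress, 621 to 814 in control and 690 to 821 in enriched, and plaque microglia markers (10 of 10) from 236 to 269, 223 to 271 and 247 to 287. The mean log2 CPM of the plaque microglia markers, which gives each marker equal weight, was 4.03, 4.04 and 4.46 in enriched, above the 3.93, 3.69 and 3.95 of control, and 3.87, 3.81 and 4.2 in stress. Endothelial markers (10 of 10) were at 169 to 395 CPM in stress, 104 to 137 in control and 124 to 241 in enriched, so all stress values lay above control. Neutrophil and monocyte markers (9 of 11 tested) spanned 47.9 to 204, 34.1 to 68.6 and 24.1 to 106 CPM, and choroid plexus markers (10 of 10) 382 to 1550, 3120 to 3810 and 45.5 to 2190 CPM, below control in every stress and enriched library. Astrocyte markers (8 of 8) were at 5520 to 6130 CPM in stress, 6120 to 6720 in control and 5940 to 6000 in enriched, all enriched sums below control. Their mean log2 CPM was 8.92, 8.92 and 8.9 in enriched and 8.82, 9.03 and 8.95 in control, so the groups overlapped by that measure. T and NK cell markers (10 of 12 with a row, 1 tested) summed to 1.29 to 2.08, 1.63 to 2.35 and 1.68 to 2.57 CPM, with Cd3d, Cd8b1, Nkg7, Gzmb and Klrd1 at 0 in some libraries. Mucosal epithelium markers (6 of 8 tested) lay at 3.28 to 10.3, 10.4 to 13.5 and 9.1 to 75.7 CPM, all stress sums below control. Their mean log2 CPM was 0.37 to 0.93 in enriched, -0.75 to -0.35 in control and -0.88 to 0.16 in stress, which overlapped control. The part of these markers in the results was not tested.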

How the data were processed

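Polyadenylated RNA of 9 brain samples was sequenced; per the labels' protocols, oligo(dT) beads, random hexamers and DNA nanoballs were used, with no strand marking or molecular identifiers described. Per the submitters' processing notes, the build was GRCm38.p6 and the tools included RSEM 1.2.12, HISAT2 2.0.4 and Bowtie2 2.2.5, without their roles. The deposited table gives, per the file headers, an estimated count per RefSeq transcript (56.5% of values not whole), a TPM made by the authors, scaled by transcript length and library, and an FPKM made by the authors, whose 9 columns were not used. The deposited TPM of these rows leaves 3.93% to 4.33% of each library to transcripts not analysed here.

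Estimated counts of 65535 transcript rows were added up by gene identifier to 18450 genes (18398 matched RefSeq symbols) and rounded. Genes were kept by filterByExpr (minimum count 10, minimum total 15), which left 14694, scaled by TMM (factors 0.9637 to 1.025) and tested by edgeR 4.0.16 quasi-likelihood (robust) in R 4.3.3, with 9 libraries in 1 fit, Benjamini-Hochberg adjustment and a threshold of 0.05; standard errors come from the F statistic. Alternatives used RLE size factors, no filter, DESeq2 1.42.0, limma 3.58.1 (voom, and log2(TPM + 0.1)), only the 2 groups compared, the code's letter, a length offset, and each library left out. Every pair of libraries differed by more than sampling noise (chi-square per gene at least 7.63), so all were kept. Groups came from the labels' group field, and replicates were numbered in accession order.

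Values per library are given for the 4 members with the highest TPM, the 3 with the smallest unadjusted p in each direction and comparison, those under 0.05, and the first of each role; Ifit3 was given in full after its values were seen. Of each other list with tested genes, the 2 genes with the smallest unadjusted p per direction and comparison are named, except 1 gene that is not reported here. The members and lists were chosen with earlier results of these data known. With 3 against 3, a two-sided exact permutation test of a single value cannot go below p = 0.1, so none was run on the mean over members.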

Additional observations from a re-analysis of the deposited data

How the results depend on the processing

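With the 9 libraries in, edgeR called 0 genes in each comparison (1172, 2994 and 388 genes were under an unadjusted p of 0.05 in stress against control, enriched against control and stress against enriched), and limma-voom called 0. DESeq2 called 7, 40 and 0 genes, none of them members. With the code's letter as a covariate, 3 genes were called by edgeR in stress against control and 1 in stress against enriched, and the members' medians were -0.12, 0.32 and -0.32 in the 3 comparisons. That fit also turned Dhx58 to -0.21 and Ifitm3 to -0.64 in stress against enriched. On log2 deposited TPM the members' median in enriched against control was 0.39 and Irf9 in stress against control was 0.04; on that scale the median of all genes itself moved to 0.14 in stress and 0.19 in enriched. The cause was not tested.

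Leaving out each library in turn gave 0 to 1608 genes called in enriched against control (1608 without control 3, 33 without enriched 2), 0 to 2 in stress against enriched (2 without enriched 2) and 0 in stress against control. Members called ranged from 0 to 3, the 3 being those without control 3 in enriched against control. The members' median ranged from 0.02 (without stress 3) to 0.37 in stress against control, from 0.04 to 0.32 (without control 1) in enriched against control, and from -0.08 to 0.08 in stress against enriched. For the 23 log2 fold changes of named members under 17 alternatives each, 385 of 391 values kept direction and side of the threshold, 3 turned sign (above) and 3 passed, Ifit2, Herc6 and Gbp7 without control 3. These 23 were chosen by their unadjusted p in the main fit, where none passed, so this count does not measure robustness. Over all 34 members, those above 0 in stress against control ran from 14 with the letter as a covariate to 29 without control 1. No paired analysis was possible because the replicate numbers were given in accession order and pair no animals. Members with few reads, such as Ifi44 with at most 19 reads in a library, allow a difference to be seen only where it is large.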
